A study of Carya illinoinensis with 18 samples.

Results

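The 200 genes described here fell step by step in pecan leaves while the seedlings dried out, judged by the mean level of each sampling day. They are 200 of the 31074 genes in the table, and all 200 were among the 24443 genes tested. They were chosen by their own values over all 18 libraries, on the scale log2(FPKM + 1), where FPKM is fragments scaled to transcript length and to the fragments mapped in the library. A gene was kept when its mean fell at every sampling, when less than 50% of its whole fall had been reached by 6 d and at least 50% by 12 d, and when its highest 15 d library was below its lowest 0 d library. Its 0 d mean FPKM also had to be under 1000 and its highest 15 d FPKM over 0.1. Of the 1130 genes that met these conditions, the 200 with the largest fall from 0 d to 15 d were taken, and they are ranked by that fall. Levels, folds and calls of these genes against 0 d are therefore a description and carry no independent evidence of a fall.

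The leaves came from grafted seedlings of the pecan cultivar Pawnee, with Pawnee scions on rootstocks raised from Pawnee seed, kept in a growth chamber without water for 15 d. Leaves were taken before water was withheld (0 d) and then every 3 d to 15 d, with 3 libraries a day, each from at least 3 plants. The 0 d libraries are the untreated control. Seedlings that stayed watered over the later days are not analysed here, so drought and elapsed time cannot be told apart, and the plants of one library are pooled.

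When soil dries, leaves lose turgor, abscisic acid accumulates and stomata close, which lowers the entry of carbon dioxide. Leaf growth stops early, and photosynthesis and many biosynthetic pathways are lowered as the deficit deepens. The amount of a messenger RNA in a leaf depends on how fast it is made and how fast it decays, so a transcript can decline over days while its gene is still being read. In bulk leaf RNA, fewer cells of a type and less RNA per cell cannot be told apart.

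The identifiers of the table matched none in the RefSeq gene table used here, so no member is given a name or a role and the leaf label was not checked against marker genes. Members are called by their rank, and 2 identifiers are printed. Library sums of FPKM ran from 545598 to 587063, relative depth differed by up to 1.38 times, and depth in reads is unknown. Pearson correlations of all genes within a day ran from 0.86 to 0.99. Several libraries stood closer to one of another day than to those of their own. Over the genes outside the 200, the library closest to 9 d replicate 1 was 12 d replicate 1 (r = 0.984), and the one closest to 12 d replicate 2 was 9 d replicate 3 (r = 0.965). Likewise 12 d replicate 3 was closest to 15 d replicate 3 (r = 0.967) and 0 d replicate 3 to 3 d replicate 2 (r = 0.971). Also, 3 d replicate 1 was closest to 0 d replicate 2 (r = 0.961) and 6 d replicate 3 to 9 d replicate 3 (r = 0.964). Both 9 d replicate 2 (r = 0.973) and 9 d replicate 3 (r = 0.968) were closest to 6 d replicate 2. In turn, 12 d replicate 1 was closest to 9 d replicate 1 (r = 0.984) and 3 d replicate 2 to 0 d replicate 3 (r = 0.971). No 9 d or 12 d library was thus closest to one of its own day. Whether these libraries carry the right day label was not tested. This bears on every 9 d and 12 d value below. It also bears on the earlier days and, through the 0 d libraries, on every difference from 0 d.

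The members were well expressed in watered leaves and low at 15 d. Their mean FPKM had a median of 60.4 at 0 d, with a range from 14.3 to 923. Over the later samplings, in order, the median was 42.2, 21.4, 13.2, 7.85 and, at 15 d, 1.43. The ratio of the 0 d to the 15 d mean FPKM had a median of 45.5 and ran from 14.4 to 896. By level at 0 d, 29 members had a mean FPKM under 30, 113 lay from 30 to under 100, 39 from 100 to under 300 and 19 at 300 or more. By level at 15 d, 81 members had a mean FPKM under 1 and 171 under 5. A value listed at 0 was rare, with 10 such values over all members and libraries, and only 3 members had a 15 d library at 0.

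The falls thus began from quite different levels and mostly ended low. Over all genes tested the 15 d mean FPKM had a median of 4.81 and a first quartile of 0.853. On the log2(FPKM + 1) scale, which understates the change of low genes, the median difference from 0 d in the 5 later samplings, in order, was -0.68, -1.50, -2.53, -3.05 and -4.45. Without 9 d replicate 1 the 9 d value was -1.73, and without 12 d replicate 2 the 12 d value was -3.77. The medians over all genes tested were 0.10, 0.12, 0.06, -0.01 and -0.24 on the same days. Just inside the limit, the member of rank 199 fell by 3.72 and that of rank 200 by 3.71. Just outside it, the next 5 genes that met the conditions had falls from 3.70 to 3.71, so the edge of the set is not a break in the values. The set also depends on single libraries. When the rule was applied again, 71 of the 200 were taken without 12 d replicate 3, 78 without 9 d replicate 2 and 128 without 12 d replicate 1.

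**Figure D1:**
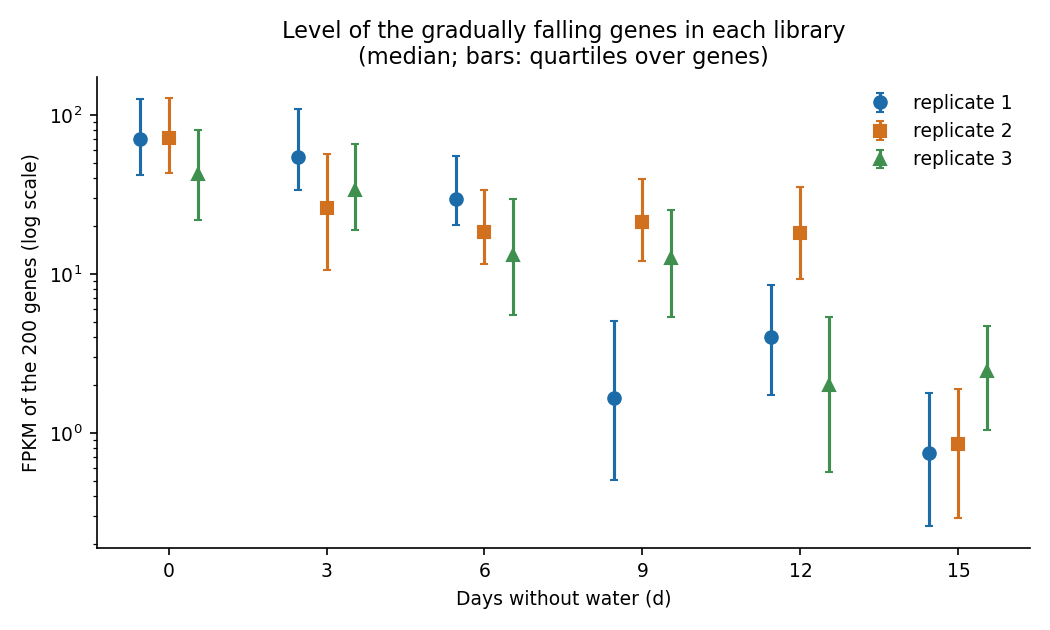
FPKM of the 200 genes in each of the 18 libraries, on a log axis against days without water, with points at the median over genes, bars from the first to the third quartile and one symbol per replicate number. The median was 1.65 in 9 d replicate 1 and 18 in 12 d replicate 2, so the order of the libraries was not the order of the days.

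Library by library the descent was uneven. The median FPKM over members was 70.8, 71.7 and 42.3 in 0 d replicates 1 to 3, then 53.9, 25.9 and 33.5 at 3 d and 29.7, 18.5 and 13.2 at 6 d. It was 1.65, 21.0 and 12.5 in the 9 d replicates, 4.02, 18 and 1.99 at 12 d and 0.745, 0.855 and 2.44 at 15 d. The 9 d and 12 d samplings thus each held libraries near the 6 d level and libraries near the 15 d level.

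The member with the largest fall, CIL0922S0018, shows this in its values. Its FPKM was 586, 632 and 273 at 0 d, 431, 38.2 and 240 at 3 d and 203, 103 and 14.1 at 6 d. It was 1.18, 63.8 and 17 at 9 d, 12.1, 58.6 and 0.79 at 12 d and 0.59, 0.85 and 5.84 at 15 d. Its mean went from 497 ± 195 (SD, n = 3) at 0 d to 2.43 ± 2.96 (SD, n = 3) at 15 d, a 205-fold lower level. The 9 d replicate 1 and 12 d replicate 3 lay among the 15 d libraries, while the replicate 2 libraries of 9 d and 12 d lay above 6 d replicate 3.

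The most abundant member at 0 d was CIL0957S0103, of rank 20, which had a similar course from a higher start and with a tighter control group. Its FPKM was 947, 1005 and 818 at 0 d, 741, 796 and 596 at 3 d and 541, 305 and 386 at 6 d. It was 45.9, 341 and 219 at 9 d, 70.1, 266 and 58.0 at 12 d and 10.7, 12.6 and 29.0 at 15 d. Its mean fell from 923 ± 95.7 (SD, n = 3) to 17.4 ± 10.1 (SD, n = 3), or 53.0-fold. No 15 d library of this gene overlapped any of 12 d, but its 9 d libraries ranged from below every 12 d library to above every 12 d library.

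Among the other members with large falls, that of rank 2 kept its level to 3 d. Its FPKM was 735, 1054 and 488 at 0 d and 756, 704 and 590 at 3 d, which overlap. It was then 260, 97.2 and 387 at 6 d, 6.11, 222 and 123 at 9 d, 14.6, 103 and 17.2 at 12 d and 2.85, 3.74 and 4.32 at 15 d. Of its whole fall, 1.2% lay in the step to 3 d and 37.7% in the step to 15 d, and 24.0% of it had been reached by 6 d.

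Over the members of rank 1 to 10, the mean FPKM ran from 137 to 759 at 0 d and from 0.153 to 6.88 at 15 d, with ratios from 63.1 to 896. The highest ratio belonged to the member of rank 4, which was nearly gone at 15 d. It had an FPKM of 137, 197 and 78.8 at 0 d, and of 155, 111 and 88.6 at 3 d. At 6 d it had 50.5, 15.5 and 28.8, at 9 d 0.87, 6.78 and 8.22, at 12 d 3.02, 10.6 and 1.35, and at 15 d 0.11, 0 and 0.35. The 896-fold ratio of its 0 d to its 15 d mean rests on 15 d values close to the 0.01 to which the table is rounded.

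The member of rank 7 had far less even libraries. Its FPKM was 249, 405 and 30.6 at 0 d, 313, 8.65 and 102 at 3 d and 98.9, 49.2 and 0.67 at 6 d. It was 0.53, 34.6 and 3.07 at 9 d, 0.86, 4 and 0.55 at 12 d and 0.32, 0.60 and 2.32 at 15 d. The 6 d replicate 3 of this gene lay among its 15 d libraries, and 3 d replicate 2 was below 0 d replicate 3. The 3 d replicate 2 was also below 6 d replicate 1 and 9 d replicate 2, and 6 d replicate 3 was below 9 d replicate 2. The 3 d, 6 d and 9 d groups thus overlapped each other.

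The 5 members with the highest 0 d mean FPKM, from 703 to 923, had 15 d means from 3.64 to 39.2, and the 5 with the lowest, from 14.3 to 19.2, had 15 d means from 0.0833 to 0.453. The member of rank 188 had the lowest 0 d mean, 14.3 ± 3.89 (SD, n = 3), and the lowest 15 d mean, 0.0833 ± 0.0451 (SD, n = 3). Its FPKM was 18, 14.5 and 10.3 at 0 d, 34, 2.41 and 14.5 at 3 d and 11.6, 3.80 and 1.40 at 6 d. It was 0.05, 7.09 and 0.71 at 9 d, 0.68, 3.30 and 0 at 12 d and 0.04, 0.08 and 0.13 at 15 d. The 3 d libraries lay on both sides of the 0 d range, and 9 d replicate 1 and 12 d replicate 3 were again at the 15 d level.

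Some members followed the days closely. The smallest spread within days was that of the member of rank 108, with FPKM of 473, 510 and 412 at 0 d, 300, 287 and 248 at 3 d and 181, 115 and 188 at 6 d. It had 58.7, 108 and 113 at 9 d, 74.7, 137 and 46.6 at 12 d and 21.2, 20.9 and 21.6 at 15 d. Here the 0 d, 3 d, 6 d and 15 d groups did not overlap each other, while 9 d overlapped 12 d and 12 d reached into 6 d.

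The member of rank 180 had the most even steps, each between 16% and 21.8% of its fall, from a low start. It measured 18.7, 18.4 and 20.5 FPKM at 0 d, 12.4, 10.6 and 9.18 at 3 d and 7.26, 5.89 and 6.80 at 6 d. It measured 0.98, 8.88 and 3.40 at 9 d, 1.25, 3.65 and 0.46 at 12 d and 0.61, 0.21 and 0.54 at 15 d. Even in this gene the day means were regular where the libraries were not, since 9 d replicate 2 lay above every 6 d library and 9 d replicate 1 below 12 d replicate 1.

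At the other extreme, the member of rank 26 had the largest spread within days, with a pooled SD of 2.44 on the log2 scale. Its FPKM was 245, 202 and 36.7 at 0 d, 122, 5.31 and 28.4 at 3 d and 126, 68.3 and 0.97 at 6 d. It was 0.62, 85.3 and 22.7 at 9 d, 13.8, 91.3 and 0.30 at 12 d and 1.17, 0.97 and 2.92 at 15 d. Libraries below 1 FPKM thus occurred at 6 d, 9 d and 12 d, and others of 9 d and 12 d were above 0 d replicate 3. The highest level at 15 d, a mean FPKM of 39.2 ± 9.22 (SD, n = 3), was that of the member of rank 138. It started from 727 ± 93.7 (SD, n = 3) and, with a ratio of 18.5, was still well above the 15 d level of most members.

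**Figure D2:**
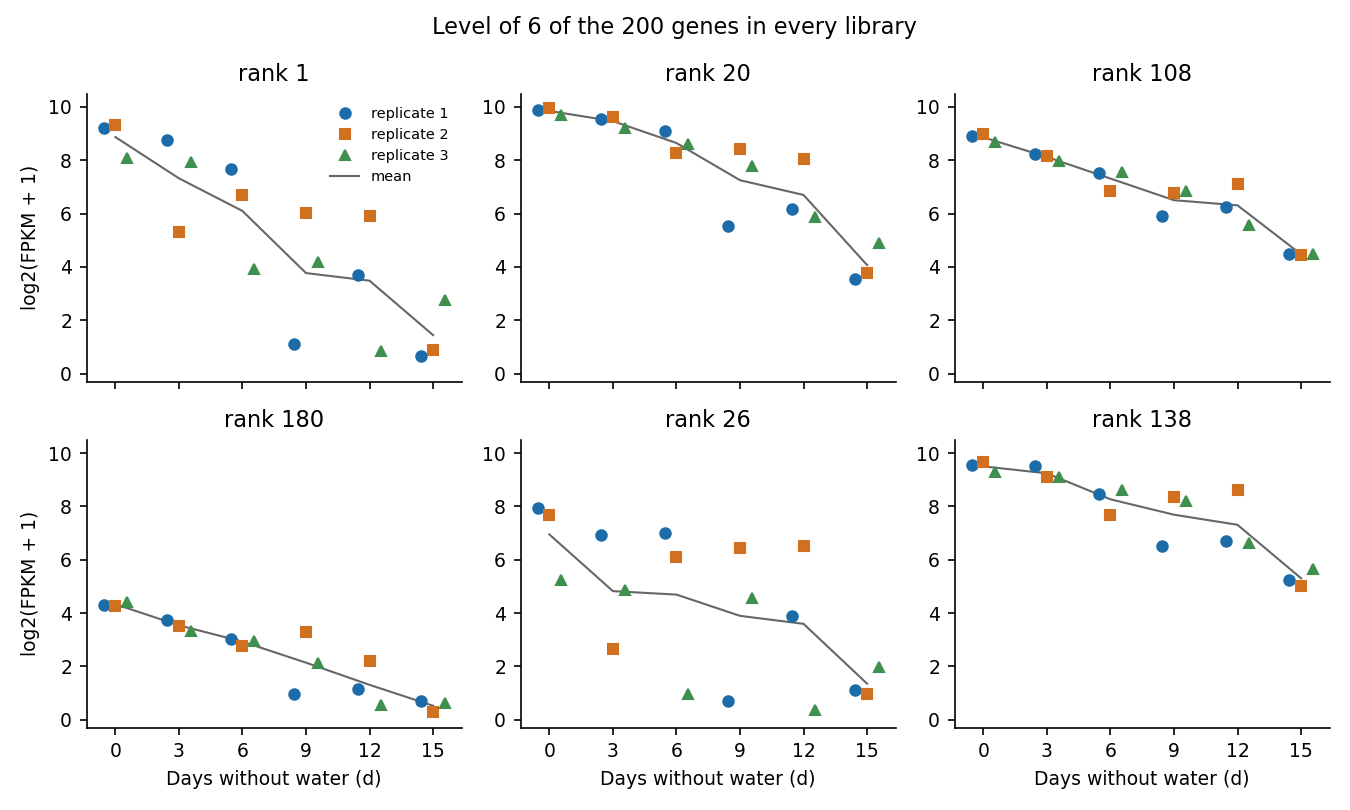
Levels of 6 members, as log2(FPKM + 1) against days without water, with one point per library, one symbol per replicate number and a line through the mean of each day (n = 3). Those of rank 1 and 20 are the 2 named in the text, those of rank 108 and 26 have the smallest and the largest spread within days, that of rank 180 has the most even steps, and that of rank 138 has the highest 15 d mean. In all 6 panels 9 d replicate 1 is the lowest point of its day and 12 d replicate 2 the highest of its day.

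With all libraries, the last step held the largest median share of the fall. The median share of the whole fall was 14.7% in the step to 3 d, 17.7% in that to 6 d, 22.4% in that to 9 d, 10.2% in that to 12 d and 34.0% in that to 15 d. The largest step was the last in 118 members, the one to 9 d in 43, the one to 6 d in 21, the one to 3 d in 16 and the one to 12 d in 2. The order of the last steps rests on single libraries. Without 12 d replicate 2, the step to 12 d held a median of 26.4% and that to 15 d 16.8%, and the last step was the largest in 50 members. Without 12 d replicate 3 these shares were -0.48% and 46.0%, and the last step was the largest in 162 members. Without 9 d replicate 1 the step to 9 d held 4.94% and that to 12 d 27.7%, and without 9 d replicate 2 they held 35.3% and -1.74%. Without 9 d replicate 1 and 12 d replicate 2 together, the step to 12 d was the largest in 181 members, with a median share of 43.6%. The step to 12 d held 5.63% without 9 d replicate 3 and 5.39% without 12 d replicate 1. Among the earlier samplings, the step to 3 d was the largest in 42 members without 0 d replicate 3 and in 49 without 3 d replicate 1, and the step to 9 d was the largest in 76 without 6 d replicate 3. These values, for the same 200 members, were added after the data were seen.

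By 6 d a median of 33.6% of the fall had been reached, and by 12 d 66.0%, both within limits set by the rule. The member with the least even steps, of rank 78, had 47.2% of its fall in the step to 3 d and 0.9% in the step to 6 d.

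**Figure D3:**
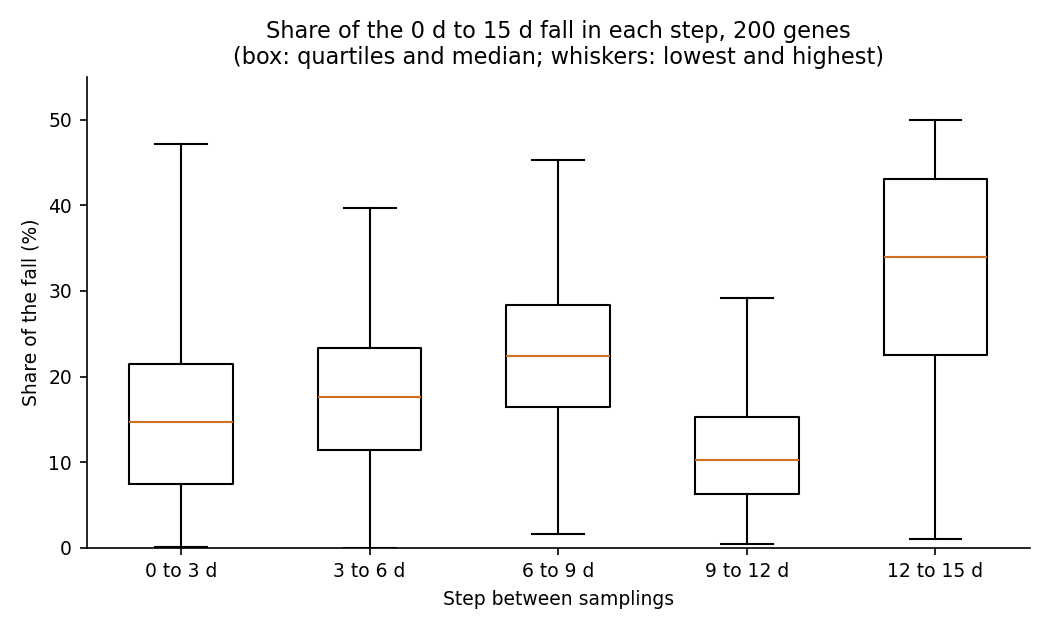
Share of the fall from 0 d to 15 d in each step between samplings, in percent of the difference of log2(FPKM + 1) means, over the 200 genes. Boxes show the median and quartiles and whiskers the lowest and highest gene. The median is highest for the step from 12 to 15 d, 34.0%, and lowest for that from 9 to 12 d, 10.2%, but without 12 d replicate 2 these medians are 16.8% and 26.4%.

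Means of log values and means of FPKM did not always tell the same course. The mean FPKM also fell at every step in 156 of the 200 members. In 16 members the 3 d mean FPKM was not below the 0 d mean, and in 17 the 12 d mean was not below the 9 d mean. The member of rank 200 had a mean FPKM of 30.7 at 6 d, then 31.5 and 36.0 over the next samplings, and its 12 d replicate 2, at 76.9, lay far above the other libraries of that day, at 20.6 and 10.6. The step to 15 d was a fall in mean FPKM in all 200 members.

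Against 0 d, limma (one mean per day, Benjamini-Hochberg adjustment over all genes tested, adjusted p under 0.05) called 0 members lower at 3 d, where 0.0245% of all genes tested were called lower. At an unadjusted p under 0.05 there were 7 members, or 3.50%, against 11.3% of all genes in either direction. It called 21 members lower at 6 d, where 2.9% of all genes were called, and 149 at 9 d, where 7.55% were. At 12 d it called 183, against 13.3% of all genes, and at 15 d 199, against 34% of all genes. The members were chosen by these same contrasts, so nothing is read from their counts. The 6 d count is sensitive to single libraries, as is that over all genes tested, given in brackets. It was 2 (348) without 0 d replicate 2, 3 (270) without 0 d replicate 1 and 3 (365) without 6 d replicate 2. It was 9 (432) without 6 d replicate 3 and 13 (557) without 0 d replicate 3, against 21 (709) with all libraries. It was larger without some 9 d and 12 d libraries, being 53 (912) without 9 d replicate 1 and 54 (1135) without 12 d replicate 2. Those libraries enter the 6 d contrast through a spread shared by all days. It was 32 (745) without 9 d replicate 2 and 32 (890) without 12 d replicate 3. It was 19 (629) without 9 d replicate 3 and 21 (634) without 12 d replicate 1. The 9 d count, 149 (1845), was 49 (595) without 9 d replicate 1, 54 (641) without 0 d replicate 1 and 65 (802) without 0 d replicate 2. The 12 d count, 183 (3250), was 116 (1335) without 12 d replicate 3. A fit without both 9 d replicate 1 and 12 d replicate 2, chosen after the data were seen, called 120 (1908) at 6 d and 127 (1376) at 9 d.

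The one member not called at 15 d, of rank 157, differed greatly between the libraries of each early day. Its FPKM was 44.9, 81.9 and 1.07 at 0 d, 143, 0.08 and 41.6 at 3 d and 51.9, 15.8 and 0.25 at 6 d. It was 0.14, 12.1 and 0.62 at 9 d, 0.55, 3.22 and 0.23 at 12 d and 0.06, 0.06 and 0.51 at 15 d. Its lowest 0 d library, at 1.07, was not far above its highest 15 d library, at 0.51.

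Groups that do not overlap were also counted. The rule required day means that fall at every sampling, so these counts too are a description, and nothing is read from their order. Every 3 d library was below every 0 d library in 65 members, against 7.18% of all genes tested. At 6 d this held for 141 members, against 14.6%, at 9 d for 166, against 17.1%, and at 12 d for 186, against 20.5%. At 15 d the rule required it of all 200, against 43.4% of all genes. With 3 libraries against 3, an exact permutation test of 1 gene cannot give a two-sided p below 0.1.

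Neighbouring days were less clearly apart. Every 6 d library was below every 3 d library in 71 members, where 7.93% of all genes had this order. Every 9 d library was below every 6 d library in 13 of 200 members, against 1309 of 24443 genes tested, or 5.36%. Every 12 d library was below every 9 d library in 2 of 200 members, against 564 of 24443, or 2.31%. These 2 counts lie near the shares of all genes, so nothing about the members is read from them. Every 15 d library was below every 12 d library in 98 members, against 26.4% of all genes. In 0 members did all 5 steps separate the libraries fully, a count that was not made over all genes. The gradual course described here is that of the day means. The range between libraries of a day exceeded the step from the day before in 99.0% of the members at 9 d and in 98.0% at 12 d, against 87.6% and 91.1% of all genes tested. At 15 d this was so in 40 members, against 40.2% of all genes.

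The spread between libraries lay mostly in the middle of the course. The SD within a day on the log2 scale had a median over members of 0.32 in the 0 d libraries, 0.58 in those of 3 d and 0.64 in those of 6 d, then of 1.48 in the 9 d libraries, 1.29 in those of 12 d and 0.42 in those of 15 d. Over all genes tested it was 0.18, 0.29, 0.24, 0.31, 0.35 and 0.17. The 3 libraries of 9 d spanned more than 2 on the log2 scale in 162 members, or 81.0%, against 8.04% of all genes, and those of 12 d in 146 members, or 73.0%, against 7.80%. The share of members with such a range was smallest at 15 d, with 9 members.

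The same libraries were high or low in nearly every member. The 9 d replicate 1 was the lowest of its day in 200 of 200 members, against 54.9% of all genes tested. The 12 d replicate 2 was the highest of its day in 200 of 200, against 48.6% of all genes. The 12 d replicate 3 was the lowest of its day in 163 members, against 49.9% of all genes. The 9 d replicate 2 was the highest of its day in 176 and the 15 d replicate 3 in 191, against 43.8% and 53.4% of all genes.

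Placed on each member's own scale from its 0 d mean, at 0%, to its 15 d mean, at 100%, the libraries fell into a different order from the days. The median share of the fall reached was 91.9%, 30.3% and 46.5% in 9 d replicates 1 to 3 and 75.6%, 33.1% and 89.6% in those of 12 d. At 6 d it was 19.8%, 34.2% and 41.2%, and at 3 d 4.8%, 22.0% and 17.2%. The replicate 2 libraries of 9 d and 12 d had thus gone about as far as 6 d replicate 2, and 9 d replicate 1 and 12 d replicate 3 about as far as 15 d replicate 3, at 89.7%.

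Counts of members show how far these libraries crossed into other days. The 9 d replicate 1 was at or below the highest 15 d library in 109 members and below the lowest in 22. The 12 d replicate 3 was so in 97 and 35 members. The 12 d replicate 2 was at or below the highest 15 d library in 0 members and lay above the lowest 6 d library in 171. Between 25% and 75% of the fall lay 179 members in 9 d replicate 3, 159 in 6 d replicate 2 and 138 in 12 d replicate 2. In the same libraries this was so for 85, 158 and 124 of 200 genes with an earlier fall and for 63, 131 and 5 of 200 with a later fall, 2 sets described below that were chosen by the same shares. In these earlier and later sets, 9 d replicate 1 was at or below the highest 15 d library in 159 and 24 genes. The 12 d replicate 3 was so in 177 and 5, and 12 d replicate 2 in 15 and 0. These crossings thus differed with the timing used to choose each set, and were not counted over all genes.

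**Figure D4:**
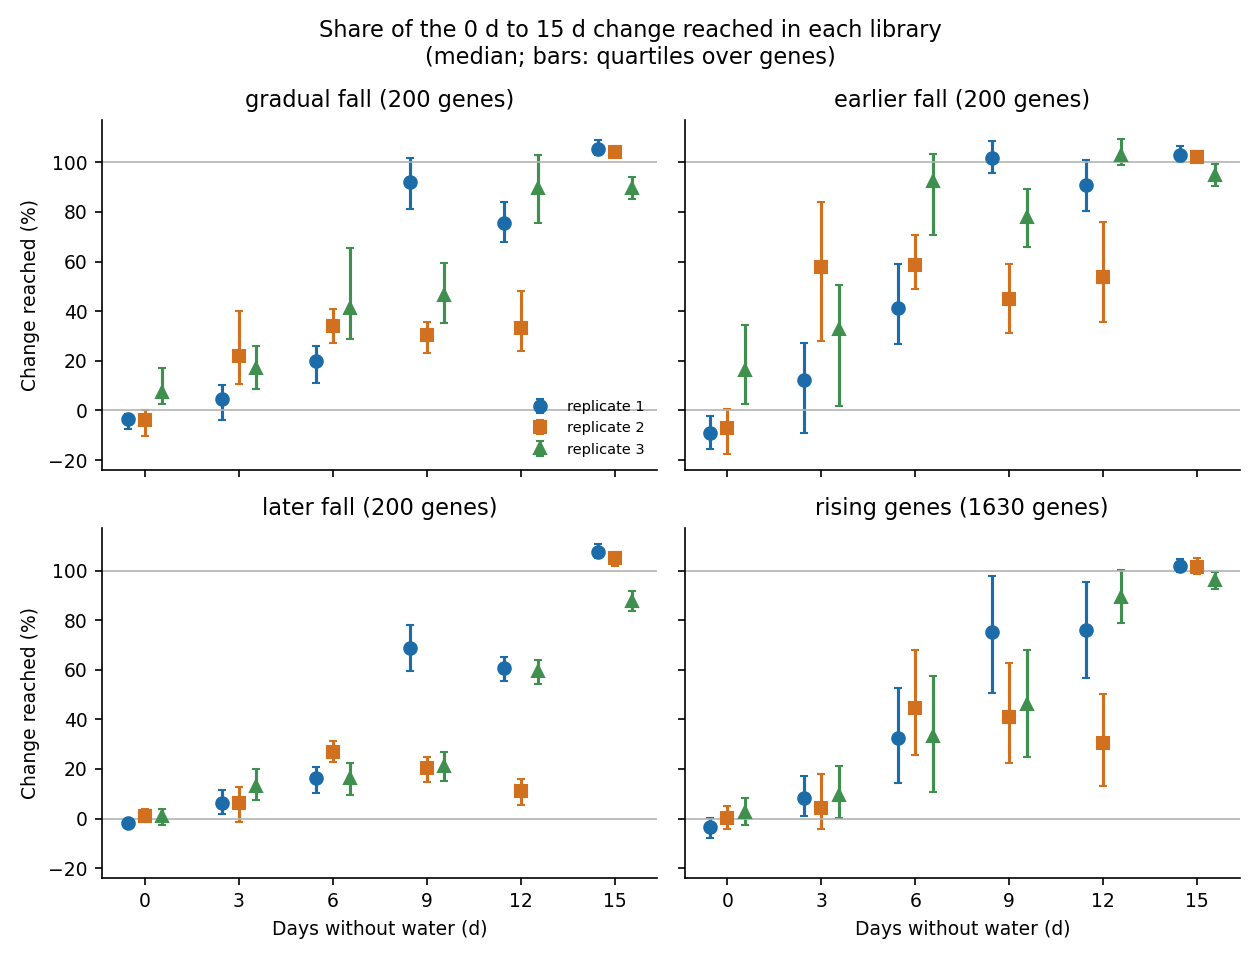
Share of the change from the 0 d mean to the 15 d mean reached in each library, in percent of the log2(FPKM + 1) difference, for the members and 3 other sets of genes, with points at the median over genes, bars from the first to the third quartile and one symbol per replicate number. In the members 9 d replicate 1 reached 91.9% and 12 d replicate 2 33.1%. In the 1630 rising genes the same 2 libraries reached 75% and 30.5%.

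The position of a library was not particular to the members. Over the 12 libraries of 3 d to 12 d, the median position in the members was set beside that in 3 other sets of genes: 200 genes with an earlier fall (50% or more reached by 6 d and by 12 d), 200 with a later fall (under 50% by 12 d), and the 1630 genes that rose by at least 2 on the log2 scale from 0 d to 15 d without overlap. Pearson's r was 0.91 with the earlier fall, 0.95 with the later fall and 0.94 with the rising genes, and Spearman's rho was 0.95, 0.82 and 0.88. These are descriptions over points that share libraries, depth and days. In the rising genes 12 d replicate 3 stood at 89.4% and 12 d replicate 2 at 30.5% of the rise, so the 12 d libraries kept their order in genes that moved the other way.

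The falling sets differed in their spread within days. The median SD within 9 d was 1.48 in the members, 0.996 in the genes with an earlier fall and 1.11 in those with a later fall. At 3 d the earlier set had the larger value, 0.98 against 0.58 in the members and 0.32 in the later set. The members and these 2 sets also differed in size of fall and in level. The median log2 difference at 15 d was -4.45 in the members, -3.30 in the earlier and -3.95 in the later set. The median of the 9 d mean FPKM was 13.2, 2.49 and 40.0. The 3 sets were chosen on the same libraries, and the differences in spread were not tested.

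Within the first 6 d the members divided by how they behaved in 3 libraries. In 58 members 0 d replicate 3 was at or below 0.5 of both other libraries of its day (as FPKM + 1), which held for 3.85% of all genes tested. The same was so for 3 d replicate 2 in 52 members, against 10.3% of all genes, and for 6 d replicate 3 in 65, against 8.24%. All 3 libraries were low in 35 members, or 17.5%, against 2.01% of all genes, and none of the 3 in 115. Of the 58, 41 were also low in 3 d replicate 2 and 46 in 6 d replicate 3, and 38 of the 52 were low in 6 d replicate 3. Of the 65 low in 6 d replicate 3, 38 were low in 3 d replicate 2. Of the 58 members low in 0 d replicate 3, 35 were low in all 3 libraries, against 492 of 942 genes tested. Such overlap between these libraries was thus not particular to the members.

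In the 35, the median FPKM was 71.5, 81.0 and 13.0 in 0 d replicates 1 to 3, 60.8, 3.67 and 29.0 at 3 d and 38.0, 17.4 and 1 at 6 d. In the 115 it was 71.5, 66.7 and 60.0 at 0 d, 46.7, 45.0 and 38.0 at 3 d and 30.6, 20.3 and 25.8 at 6 d. These differences restate how the groups were made. At 9 d both groups had the same low library, replicate 1, with medians of 0.47 in the 35 and 3.06 in the 115. The members of rank 26 and rank 157 above show the first pattern and that of rank 108 the second.

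**Figure D5:**
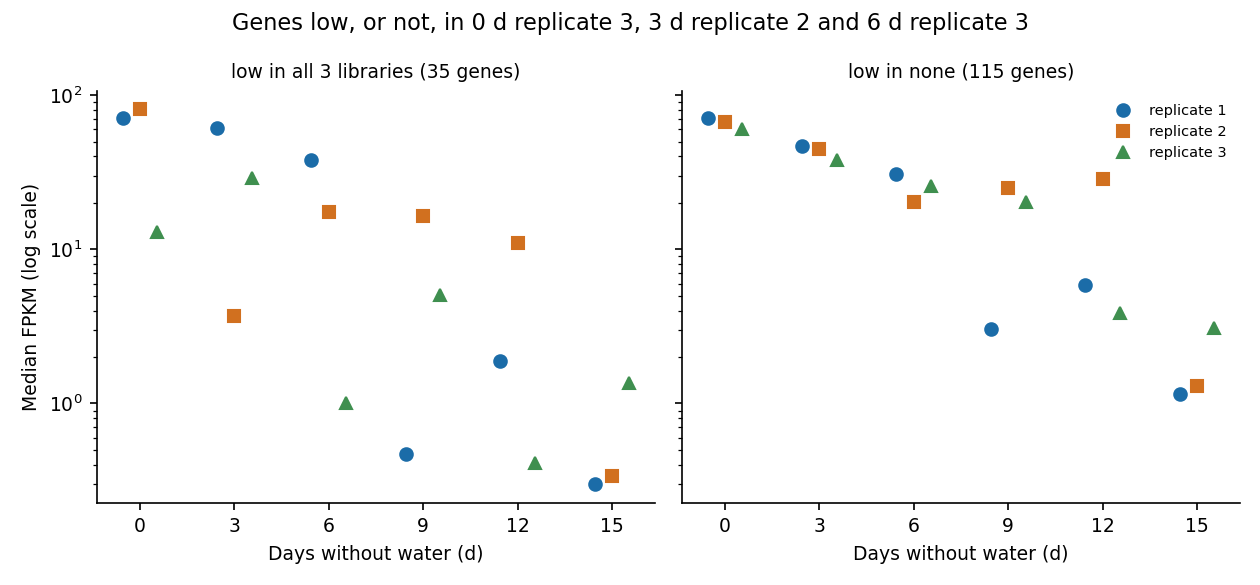
Median FPKM in each library, on a log axis against days without water, for the 35 members low in 0 d replicate 3, 3 d replicate 2 and 6 d replicate 3 and for the 115 low in none of them, with one symbol per replicate number. In the first group these 3 libraries stand at 13.0, 3.67 and 1, below the other libraries of their days, and in the second at 60.0, 45.0 and 25.8.

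Pearson's r between 2 members over the 18 libraries had a median of 0.92 over 19900 pairs, with a range from 0.43 to 0.999, as the rule favours. After the mean of each day was subtracted, r had a median of 0.79, with a range from -0.40 to 0.999. The correlation of a member with the members' mean profile then had a median of 0.88, and that of every other gene tested had a median of 0.24. The day means the rule used come from the same libraries, so these values are a description and no independent sign that the members move together. The 10 genes outside the 200 with the profile most like the members' mean had an r of 0.98 to 0.99 over 18 libraries. Of these, 9 met every condition but fell by less than the members, and 1 had a day mean above that of the day before. Their falls ran from 1.76 to 3.64 on the log2 scale.

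The identifiers show members spread over the table. Each identifier begins with a prefix shared by a group of genes, and 155 of 1616 prefixes held a member, with at most 4 members on one prefix. Consecutive numbers on one prefix never belonged to 2 members, and 3 pairs lay within 10 numbers. Whether these numbers follow the order of genes on a scaffold is not given in the sources used here.

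The genes numbered directly before or after a member, which the rule did not use, were compared with all genes. Of 256 such genes tested, limma called 109, or 42.6%, lower at 15 d, against 34% of all genes, and 48, or 18.8%, higher, against 22.1%. Their median difference at 15 d was -0.48 on the log2 scale, against -0.24 over all genes, but -0.24 with median-ratio scaling and -0.22 after quantile normalization. Among all calls at 15 d, 60.6% were lower, but 49.2% were with FPKM scaled by median ratios and 49.5% after quantile normalization, which moved the median of all genes to -0.03 and -0.01. With these scalings 36.3% and 35.5% of the neighbouring genes were called lower, against 28.5% and 27.5% of all genes. A share above the background by this margin was not tested against it.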

How the data were processed

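Total RNA of pecan leaves was sequenced from poly(A)-enriched libraries on an Illumina instrument. The submitters' processing notes list fastp 0.18.0, Bowtie2 2.2.8, HISAT2, StringTie 1.3.1 and RSEM, without roles. The genome build and annotation are not given in the sources used here. The authors deposited one table of FPKM, estimated with RSEM and rounded to 2 decimals, so genes that share reads depend on how RSEM divided them. FPKM fixes no depth in reads. Relative depth was taken from the steps between low values of 2770 genes.

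Values were analysed as log2(FPKM + 1), a pseudocount of 1. The test covered genes whose FPKM averaged 0.1 or more. Their values entered limma 3.58.1 (R 4.3.3), one mean per day over the 18 libraries, eBayes with a trend, contrasts against 0 d, two-sided, Benjamini-Hochberg adjusted. Groups came from the sample labels, and 0 columns were unmapped. The study states biological repetitions of pooled plants. The p-values measure the spread between these pools, estimated for each gene over all days together. The median SE of the members was therefore the same, 0.735, in every contrast, although their spread within days differed between days. Each p-value thus also depends on libraries of days outside its contrast. Both the limma and the depth script were tested on simulated data. Python 3.11.15, numpy 2.4.6, pandas 2.3.3 and matplotlib 3.10.9 did the rest.

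The members and all lists were chosen with earlier results of these data known. The rule for genes to describe took those of rank 1 to 10, with the highest and lowest 0 d means, the most and least even steps, the largest and smallest spread, and those at the limit of the set. Of these, some are given in full and the rest by their ranges. The member not called at 15 d and those with the highest and lowest 15 d means were added after their values were seen. Alternatives were another pseudocount, median-ratio and quantile scaling, other filters and a stricter call, a replicate block, medians per day and each library left out. No names, sequences or coordinates were used.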

Additional observations from a re-analysis of the deposited data

How the results depend on the processing

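The counts of members called lower at 3 d (0 under all alternatives) and 15 d (194 to 200) kept within 1.5 times of the reported ones, as did the neighbouring genes called (77 to 117). Counts over all genes tested ran from 0 to 75 at 3 d and from 5738 to 8772 at 15 d. They are given in brackets for the other days. At 6 d the reported 21 (709) became 10 (532) with a pseudocount of 0.1, 46 (1340) with median-ratio scaling and 46 (1408) with quantile normalization. It became 2 to 54 (270 to 1135) when each library was left out in turn. At 9 d the reported 149 (1845) became 49 to 172 (595 to 2556) when each library was left out. At 12 d the reported 183 (3250) became 116 to 195 (1335 to 4906). A fit of 16 libraries, without 9 d replicate 1 and 12 d replicate 2, was chosen after seeing the data and called 120 members (1908 of all genes) at 6 d. The median change at 15 d of -4.45 was -5.61 with a pseudocount of 0.1. Leaving out 9 d replicate 1, 12 d replicate 2 or both kept the median 6 d difference at -1.50. Only the spread shared by all days changed for that contrast. The cause of the other shifts was not tested.

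Membership itself moved. Of the 200 members, 123 were taken again with a pseudocount of 0.1, 123 with medians per day, 133 from the 16 libraries, and 71 (without 12 d replicate 3) to 180 when each library was left out. Without 9 d replicate 2 it was 78, and without 12 d replicate 1 it was 128. With a replicate block in the fit, 0, 21, 142, 181 and 199 members were called over the 5 later samplings in order. Over all genes tested the same fit called 7, 675, 1730, 3121 and 8223 lower. No pairing by replicate number was seen, though these values cannot show that the samples are unpaired. The correlation of deviations was over 0.1 in 15 of 45 same-number pairs. Its median was -0.035 in these pairs and 0.012 in the 90 pairs of other numbers. For 7 of 18 libraries, the closest library of another day had their own number. The median share of the fall in the step to 9 d ran from 4.94% to 35.3%, to 12 d from -1.74% (without 9 d replicate 2; -0.48% without 12 d replicate 3) to 27.7%, and to 15 d from 16.8% to 46.0% when each library was left out. Without both 9 d replicate 1 and 12 d replicate 2 it was 4.94%, 43.6% and 16.8% in these steps. Absolute depth is unknown, so the precision of values near 0 is not known.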

Other observations

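Over all other genes tested, the correlation with the members' mean profile ran from -0.99 to 0.99 over the 18 libraries, with a median of 0.33, and from -0.99 to 0.99 after day means were subtracted, with a median of 0.24. These values describe points that share libraries and days.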
